A study of Mus musculus with 10 samples.

Results

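The phosphodiesterase 4, 1 and 10 genes encode enzymes that break down cyclic nucleotides, and 8 of the 21883 protein-coding genes in the RefSeq annotation of the mouse build mm10 belong to them here. They are Pde4a, Pde4b, Pde4c, Pde4d, Pde1a, Pde1b, Pde1c and Pde10a. The set was selected on the covered length of H3K4me3 peaks: earlier results from these data showed narrower coverage of the first Pde4a promoter in transgenic libraries, so the values of that region are given as a description. H3K4me3, trimethylation of lysine 4 on histone H3, marks active and poised promoters. ChIP-seq, the sequencing of DNA precipitated with an antibody to the mark, was done on NeuN-sorted neuronal nuclei of hippocampal area CA1 and gave 4 libraries from CamkdeltaC transgenic mice and 4 from littermate controls. All were male and 3 months old by their labels. CamkdeltaC is a splice variant of CaM kinase II delta, a kinase switched on by calcium and calmodulin. The promoter that drives the transgene is not given in the sources used here. The protocol text places the controls, and 1 of 2 sets of transgenic mice, on vehicle in their drinking water. Its other set drank the deacetylase inhibitor vorinostat, and no library used here carries a drug label. Whether each library came from a separate animal is also not stated, so the p-values reflect only how these libraries scatter, and that scatter may be technical.

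Phosphodiesterases end the signal of cAMP or cGMP by hydrolysing it. The PDE4 enzymes are specific for cAMP and are the targets of rolipram, and each PDE4 gene makes long and short protein forms from alternative promoters spread along the gene. The PDE1 enzymes are activated by calcium and calmodulin, the same signal that activates CaM kinase II, and they hydrolyse both cyclic nucleotides. PDE10A also hydrolyses both and is best known from striatal projection neurons. In the hippocampus, cAMP and its kinase PKA take part in long-lasting synaptic potentiation and memory.

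The values are lengths in base pairs (bp) covered by a library's peaks. A region is a stretch where peaks of any of the 8 libraries join, and it was assigned to a gene if it lay inside it or within 2 kb of its ends. The libraries held 51903 to 102285 peaks covering 37.5 to 57.7 Mb, and transgenic replicate 1 had the most of both. Read numbers are unknown, so a peak that is missing from a list is not known to be absent from the cells. The libraries also differed on the sex chromosomes. Transgenic replicates 1 and 4 and control replicates 2 and 3 held 13023 to 31362 X peaks and at most 15 Y peaks, whereas the other 4 held 1145 to 1293 X peaks. Of those 4, transgenic replicate 3 and control replicates 1 and 4 had 1024 to 1220 Y peaks and transgenic replicate 2 had 6. All 8 are nevertheless labelled male, and the cause was not tested. Each class holds 2 libraries per group, the 8 genes lie on autosomes, and the 2 member regions with the smallest p are also given within each class. The sorted nuclei carried the mark at neuronal genes: all 6 neuronal, 5 of 5 CA1, 3 of 3 dentate gyrus, 3 of 3 interneuron and 1 of 2 CA3 marker genes had a peak in every library, against 0 of 5 microglial, 2 of 5 astrocyte, 3 of 6 oligodendrocyte and 3 of 4 endothelial marker genes.

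The start windows of these genes differ in CG content, and 6 are shown because they span marked and unmarked starts. They come from the RefSeq promoter table for GRCm38.p6 (coordinates as in mm10) and run 5′ to 3′ up to the listed start site, with each CG in capitals. The first is cut at the outer gene start.
Pde4a first start, chr9:21165464-21165699, plus strand: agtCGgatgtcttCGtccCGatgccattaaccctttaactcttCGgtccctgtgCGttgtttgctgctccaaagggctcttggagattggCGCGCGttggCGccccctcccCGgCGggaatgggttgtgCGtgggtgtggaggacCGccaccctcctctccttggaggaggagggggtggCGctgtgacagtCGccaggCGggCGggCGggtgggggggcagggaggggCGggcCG
Pde4a second start, chr9:21183851-21184100, plus strand: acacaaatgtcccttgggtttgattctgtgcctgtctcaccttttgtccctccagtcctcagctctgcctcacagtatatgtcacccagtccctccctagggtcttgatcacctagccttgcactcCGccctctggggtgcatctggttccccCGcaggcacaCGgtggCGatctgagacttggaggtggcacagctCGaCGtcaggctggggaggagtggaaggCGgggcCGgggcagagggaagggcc
Pde4a internal start, chr9:21196455-21196704, plus strand: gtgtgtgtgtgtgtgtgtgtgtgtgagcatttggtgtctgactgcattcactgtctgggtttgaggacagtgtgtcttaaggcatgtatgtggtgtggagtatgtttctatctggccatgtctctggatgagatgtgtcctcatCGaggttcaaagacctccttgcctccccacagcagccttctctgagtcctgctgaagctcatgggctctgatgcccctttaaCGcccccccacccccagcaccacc
Pde1b first start, chr15:103502784-103503033, plus strand: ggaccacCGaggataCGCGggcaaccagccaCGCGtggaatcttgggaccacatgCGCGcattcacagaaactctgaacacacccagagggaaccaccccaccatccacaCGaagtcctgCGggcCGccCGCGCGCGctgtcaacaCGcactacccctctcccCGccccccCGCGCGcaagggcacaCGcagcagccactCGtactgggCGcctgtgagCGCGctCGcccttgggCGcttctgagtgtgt
Pde10a first listed start, chr17:8801495-8801744, plus strand: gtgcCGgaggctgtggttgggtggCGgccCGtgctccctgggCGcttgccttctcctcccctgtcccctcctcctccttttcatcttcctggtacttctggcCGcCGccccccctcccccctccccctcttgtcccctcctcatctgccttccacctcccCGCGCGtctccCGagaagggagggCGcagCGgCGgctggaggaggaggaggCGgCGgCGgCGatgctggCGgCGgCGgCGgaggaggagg
Pde4d first listed start, chr13:108653927-108654176, plus strand: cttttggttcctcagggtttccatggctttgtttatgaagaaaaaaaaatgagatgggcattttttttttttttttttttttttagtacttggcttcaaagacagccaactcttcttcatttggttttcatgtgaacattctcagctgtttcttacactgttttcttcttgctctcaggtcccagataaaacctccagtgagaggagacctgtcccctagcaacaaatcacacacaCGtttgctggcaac

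Counted over the table's 300-base windows (250 bases before to 50 after the start), the first Pde4a start had 29 CG dinucleotides and a peak in all 8 libraries, the second had 13 CG and a peak in 3 libraries, and the internal one had 7 CG and again a peak in all 8. Pde1b's first start (28 CG) and Pde10a's first listed start (23 CG) were marked in all 8, and Pde4d's listed start (2 CG) in none. CG content did not sort the starts fully, since the first listed Pde1c start has 11 CG and no peak in any library. In all, 9 of the 21 listed member starts had a peak over the window in all 8 libraries, with a median of 8 CG (4 to 29), and 10 had none in any, with a median of 2.5 (1 to 11). Over all 32851 listed mouse starts, 38.1% were marked in all 8 libraries, with a median of 21 CG, and 50.3% in none, with a median of 3. The listed starts leave out the outer starts of Pde4b, Pde1c and Pde10a, which were marked in all 8 libraries and had no CG count. The marked member starts that are listed were mostly poorer in CG than the general run of marked starts. This is given as a description, because several windows belong to one gene and no test was made. The GC box GGGCGG, searched on both strands, occurred 4 times in the window of the first Pde4a start. It occurred at least once in 5 of the 21 member windows (23.8%), against 35.7% of all windows and 65.4% of those marked in all 8 libraries. The half-site TGACG of the cAMP response element, read on both strands, was found once in the second Pde4a window and in 3 of the 21 member windows, against 20.8% of all windows. TATAAA was found in 3 of 21, against 13.6%. A match is a description of letters, not a binding site.

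**Figure D1:**
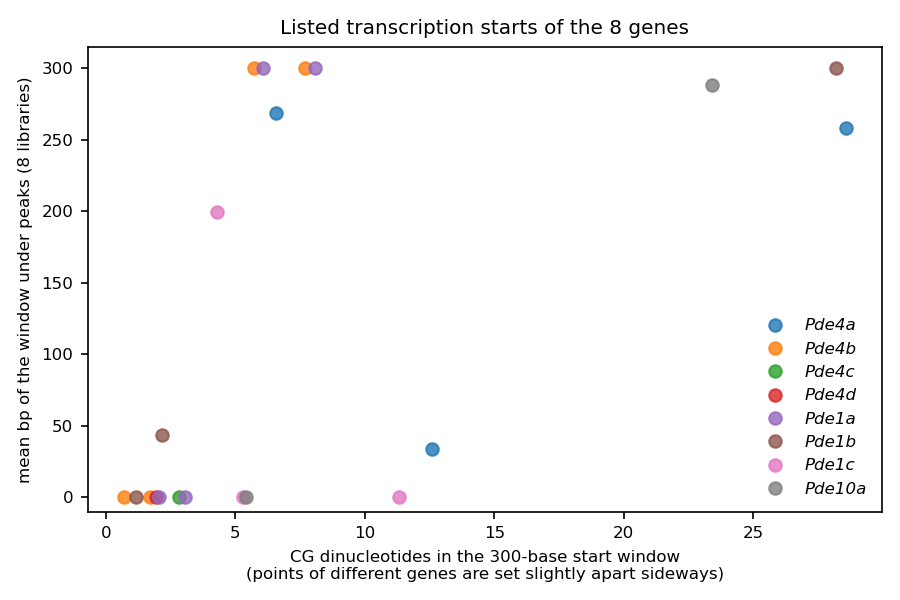
CG dinucleotides in the 300-base window at each of the 21 listed starts of the 8 genes (horizontal axis; points of different genes are set slightly apart sideways) against mean bp of that window covered by peaks over 8 libraries (vertical axis). Starts with 23 or more CG are covered, while the covered starts with fewer CG lie among uncovered ones.

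Together the 8 genes held 66 regions, of which 26 had a peak in all 8 libraries, 20 in 2 to 7 and 20 in 1 library only. The single-library regions were 200 to 359 bp wide and fell 9 in transgenic and 11 in control libraries. Of the 26 constant regions, 11 held a listed start or the outer start of the gene and 15 held neither. Pde4d had 11 of the 26. The authors' fold enrichment at the peak summit ran from 3.4 to 64.4 in constant regions and from 2.9 to 7.7 in the others.

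**Figure D2:**
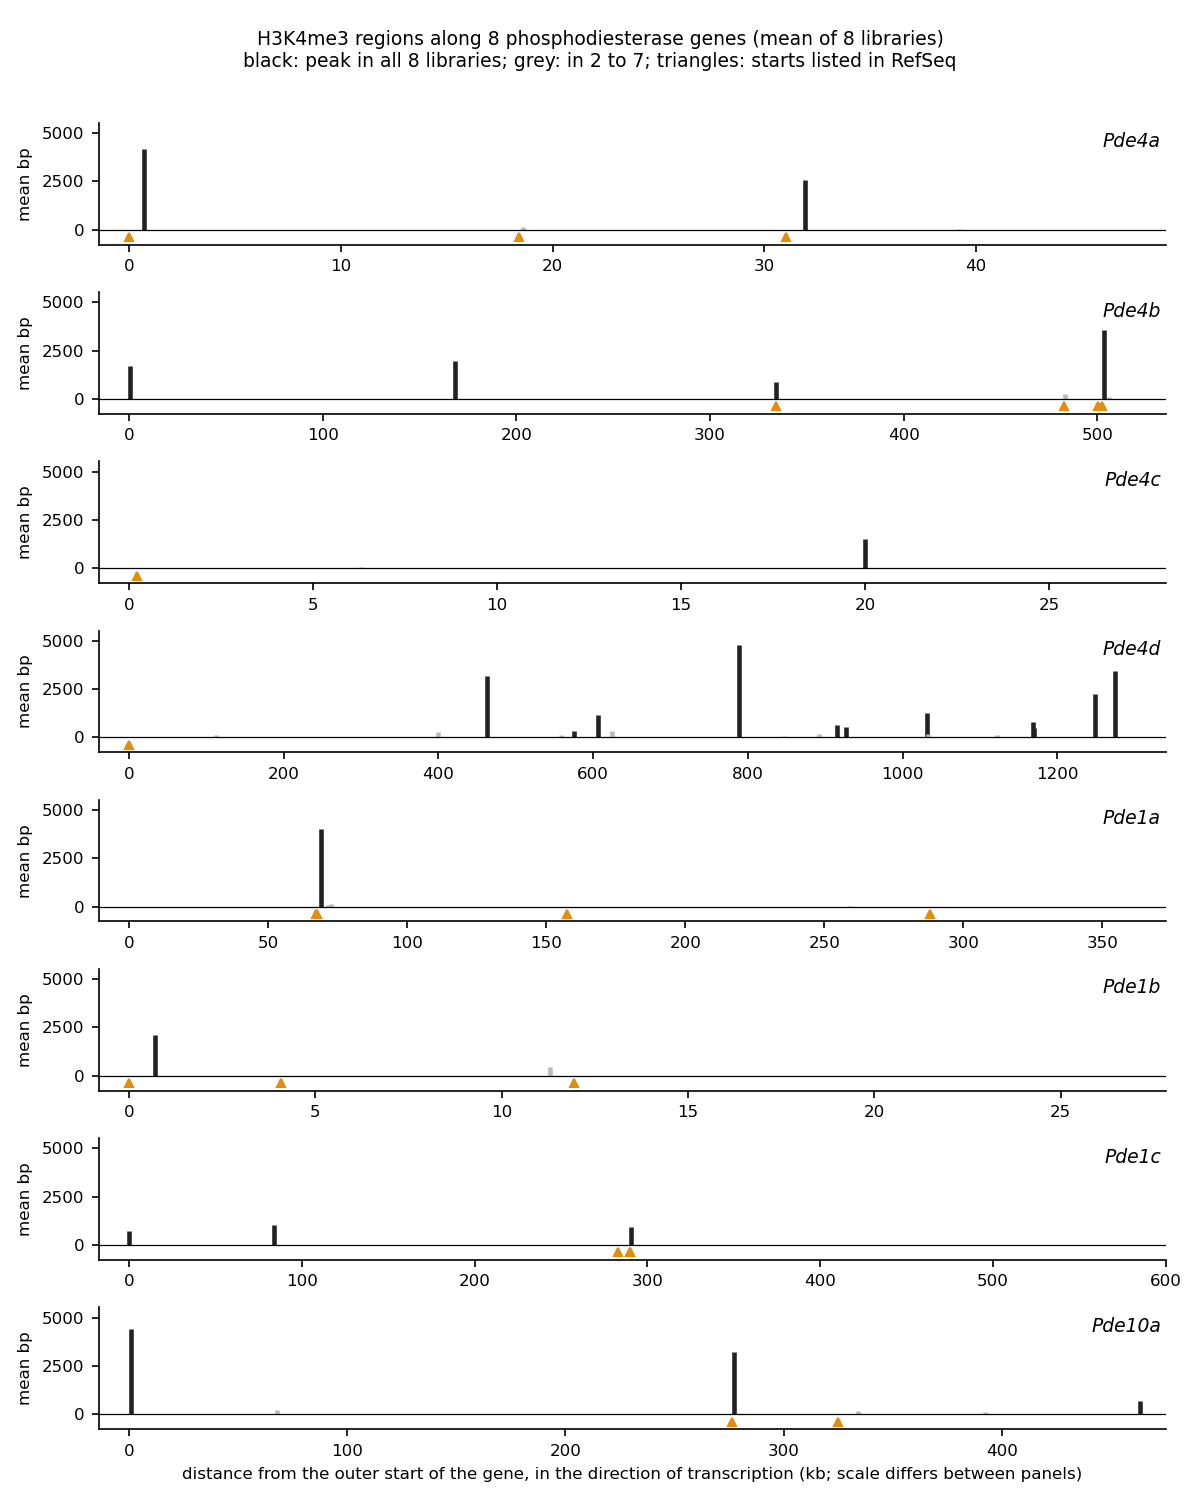
Each gene drawn from its start at 0 (horizontal axis, kb) and its regions as bars whose height is the mean bp covered over the 8 libraries (black, peak in all 8; grey, in 2 to 7), with triangles at the listed starts. Pde4d and Pde4b carry several wide regions far inside the gene, and the listed starts of Pde4c and Pde4d carry none.

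Pde4a, whose PDE4A forms are abundant in brain, was marked at both ends of its set of promoters. The first region, chr9:21163849-21168874, covers the CG-rich first start printed above and also overlaps the long noncoding RNA gene Gm36118. Its covered length was 3881, 3399, 3915 and 4314 bp in transgenic replicates 1 to 4, and 4012, 4537, 4650 and 4603 bp in control replicates 1 to 4. The transgenic libraries were lower for the most part, but the groups overlap, since transgenic replicate 4 exceeded control replicate 1. The means were 3877 ± 375 bp (SD, n = 4) and 4451 ± 296 bp (SD, n = 4), so the transgenic mean was 87.1% of the control mean. On the scale used for all regions, log2(bp + 100) centred on each library's median, the transgenic minus control difference was -0.30 ± 0.06 (SE), or -0.20 without centring. Within the libraries rich in X peaks the transgenic values were 3881 and 4314 bp against 4537 and 4650 bp in controls. Within those poor in X peaks they were 3399 and 3915 against 4012 and 4603 bp. This split was added after seeing the data, sets 2 libraries against 2, and in neither class alone was the region called.

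Mean coverage was lower in the transgenic group on both sides of the start. It was 2420 ± 234 against 2794 ± 254 bp downstream and 1457 ± 329 against 1656 ± 79.5 bp upstream (SD, n = 4 each). The groups overlapped on both sides. Upstream, transgenic replicates 1 to 4 had 1271, 1090, 1772 and 1695 bp, and control replicates 1 to 4 had 1582, 1638, 1636 and 1769 bp. The outer ends lay close together. The first covered base was at -1725 ± 42.0 bp from the listed start in the transgenic group and at -1761 ± 79.6 bp in the control group. The last was at 2937 ± 195 and 3087 ± 56.7 bp. Between these ends, uncovered gaps came to 1008, 1229, 530 and 375 bp in transgenic replicates 1 to 4 and to 685, 489, 165 and 256 bp in control replicates 1 to 4. The gaps overlap between groups, with the 2 longest in transgenic replicates 1 and 2. In transgenic replicate 1 and in control replicates 1 and 2 a gap lay over the start site itself. The region was cut into 2 to 6 peaks per library, so its covered length depends on where the authors' caller split the signal.

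**Figure D3:**
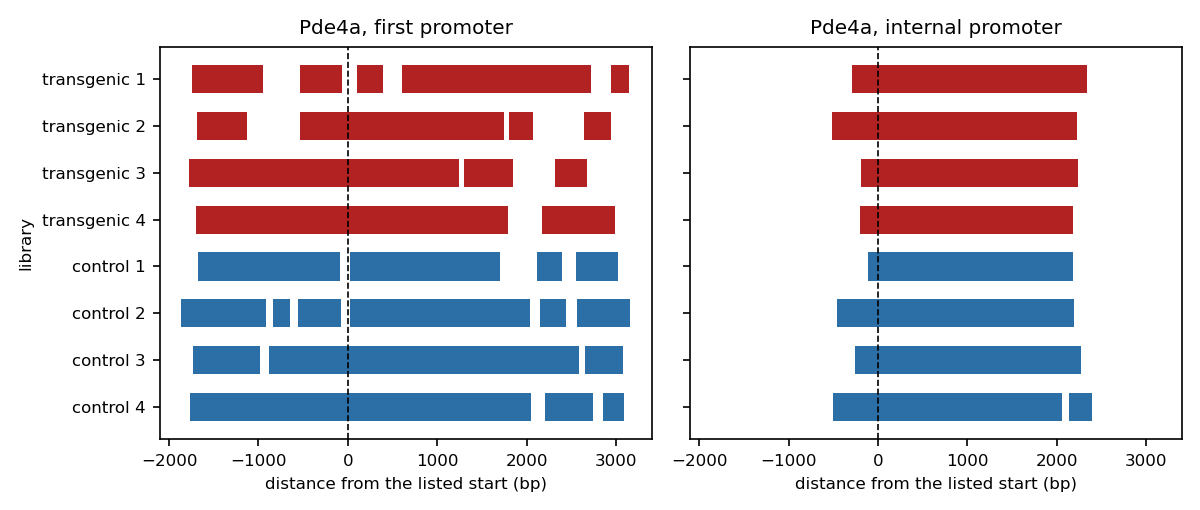
Peaks of the 8 libraries over the first (left) and the internal (right) Pde4a region, 1 row per library, with distance from the listed start in bp on the horizontal axis. In the first region the uncovered gaps total 1008, 1229, 530 and 375 bp in transgenic replicates 1 to 4, against 165 to 685 bp in controls. The last 2 transgenic values lie inside the control range.

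The internal Pde4a start lies in the region chr9:21196194-21199093, whose middle is 31.9 kb inside the gene. Coverage there was 2623, 2733, 2421 and 2376 bp in transgenic replicates 1 to 4 and 2294, 2649, 2528 and 2815 bp in control replicates 1 to 4. The groups overlapped almost fully, with means of 2538 ± 169 and 2572 ± 219 bp (SD, n = 4 each). The centred difference was -0.12 ± 0.07 (SE) and did not pass the test (limma, adjusted p = 0.702). The first region was thus 1.24 to 1.82 times as wide as this internal one in transgenic and 1.64 to 1.84 times in control libraries. The internal peak was nevertheless the stronger by fold enrichment in every library: the first region's summit reached 40.3% to 82.8% of the internal one's. The second start, chr9:21184050-21184504, was covered by 441, 337 and 345 bp in transgenic replicates 3 and 4 and control replicate 4, and by none in the other 5.

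Pde4b, a cAMP phosphodiesterase linked to mood and memory phenotypes in mice, carried 4 constant regions over its 520 kb. The outer start, chr4:102087156-102089080, was covered by 1646 ± 81.6 bp in the transgenic and 1727 ± 123 bp in the control group (SD, n = 4 each). A region 168 kb inside, chr4:102254447-102256879, holds no listed start and was covered by 2059 ± 172 and 1892 ± 312 bp. The widest, chr4:102588731-102592767, lies 503 kb inside at a listed start. It was covered by 3528, 3619, 3709 and 3664 bp in transgenic replicates 1 to 4 and by 3055, 3881, 3633 and 3646 bp in control replicates 1 to 4, with transgenic values inside the control range. None of these passed the test, with centred differences of -0.17 ± 0.10, 0.02 ± 0.11 and -0.07 ± 0.06 (SE). The listed start 334 kb inside, chr4:102421045-102422070, was covered by 790 to 994 bp. A sparse region beside the widest one, chr4:102592968-102593500, was covered by 205 bp in transgenic replicate 4 and by 297 and 280 bp in control replicates 1 and 3, and by none in the other 5 libraries.

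Pde4c, the PDE4 gene best known from peripheral tissues, showed the least marking of the PDE4 group. Its listed start had no peak in any library. Its 1 constant region lies 20 kb inside, chr8:70743022-70744676, and measured 1198, 1546, 1460 and 1592 bp in transgenic replicates 1 to 4 and 1612, 1246, 1633 and 1597 bp in control replicates 1 to 4. The groups overlapped, and the difference was -0.17 ± 0.12 (SE; limma, adjusted p = 0.702). The other Pde4c region, chr8:70729943-70730409, was seen only in transgenic replicates 2 and 3, at 200 and 391 bp, and did not pass (0.86 ± 0.62, SE; limma, adjusted p = 0.702).

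Pde4d, which encodes the PDE4D forms studied as memory drug targets, is the longest of the 8 genes at 1301793 bp and carried the most marking. Its listed outer start was unmarked, and no listed start lay in any of its 11 constant regions, 6 of which were over 1 kb in mean coverage. The widest, chr13:109440187-109445355, lies 789 kb inside, where it also overlaps the long noncoding RNA gene Gm32703. It was covered by 4787, 4979, 4813 and 4986 bp in transgenic replicates 1 to 4 and 4505, 4589, 4826 and 4975 bp in control replicates 1 to 4. These are wide and even values, and they overlap; the centred difference was -0.06 ± 0.04 (SE), turning to 0.05 without centring. The next widest were chr13:109926274-109930367, 1274 kb inside, with 3523 ± 342 and 3324 ± 462 bp in transgenic and control libraries, and chr13:109115088-109118817, 463 kb inside, with 3199 ± 255 and 3137 ± 218 bp (SD, n = 4 each). Neither differed beyond its spread. The regions 607 and 1032 kb inside were covered by 1039 to 1278 bp and 972 to 1519 bp over the 8 libraries. Of the sparse regions, chr13:108766161-108766793 was covered by 200 and 633 bp in transgenic replicates 2 and 3 alone. By contrast chr13:109500448-109500753 was covered by 200 and 245 bp in control replicates 1 and 3 alone. Neither passed the test, at 1.01 ± 0.68 and -0.95 ± 0.57 (SE; limma, adjusted p = 0.702 for both).

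The Pde4d region with the smallest p among those not called lies 1249 kb inside, chr13:109902126-109904868, and contains the microRNA gene Mir1904. It was covered by 1743, 2198, 2163 and 2192 bp in transgenic replicates 1 to 4, and by 2448, 2618, 2171 and 2525 bp in control replicates 1 to 4. Transgenic libraries were mostly lower, but control replicate 3 fell inside their range. The means were 2074 ± 221 and 2441 ± 193 bp (SD, n = 4 each). The centred difference of -0.33 ± 0.09 (SE) did not pass (limma, adjusted p = 0.263 over 72683 regions). Among libraries rich in X peaks the transgenic values were 1743 and 2192 bp against 2618 and 2171 bp, which overlap. Among those poor in X peaks they were 2198 and 2163 against 2448 and 2525 bp. In neither class alone was the region called.

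Among the PDE1 genes, Pde1a and Pde1b had 1 constant region each and Pde1c had 3. That of Pde1a is chr2:80125073-80130021, which lies 69 kb inside this minus-strand gene and holds 2 listed starts. It was covered by 3822, 3953, 4253 and 4792 bp in transgenic replicates 1 to 4 and 3646, 4282, 3920 and 3626 bp in control replicates 1 to 4. The highest value was transgenic, but the groups overlapped and the centred difference was 0.01 ± 0.07 (SE). Sparse Pde1a coverage was seen at chr2:80124618-80124997, with 252 and 343 bp, and at chr2:79937268-79937469, with 202 and 200 bp, in both cases in control replicates 3 and 4 alone. These differences of -1.10 ± 0.62 and -0.90 ± 0.55 (SE) did not pass (limma, adjusted p = 0.702 for both). At chr2:80123417-80123974 transgenic replicates 1 and 2 had 547 and 215 bp and control replicates 3 and 4 had 204 and 200 bp. Pde1b, at its CG-rich first start, chr15:103502355-103505124, was covered by 1667, 2514, 2311 and 2186 bp in transgenic replicates 1 to 4 and 1966, 1983, 2175 and 1907 bp in control replicates 1 to 4. This region also reaches the end of the neighbouring gene Nckap1l. Transgenic replicate 1 was the lowest of all 8 and the centred difference was -0.01 ± 0.10 (SE). A second Pde1b region, chr15:103513796-103514931, was seen in 7 libraries, with 0, 338, 552 and 770 bp in transgenic and 256, 500, 304 and 790 bp in control replicates 1 to 4.

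Pde1c had only narrow constant regions. The outer start, chr6:56651853-56652764, was covered by 671 ± 85.9 bp in the transgenic and 742 ± 62.5 bp in the control group (SD, n = 4 each). The region 84 kb inside, chr6:56568148-56569374, had 1032 ± 111 and 1050 ± 69.7 bp. The one 290 kb inside, chr6:56361490-56362624, had 902 ± 147 and 935 ± 101 bp. Their centred differences of -0.24, -0.13 and -0.16 did not pass the test.

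Pde10a was marked widely at its outer start, chr17:8523892-8528612. Coverage was 4320, 4721, 4292 and 4560 bp in transgenic replicates 1 to 4 and 4205, 4438, 4286 and 4295 bp in control replicates 1 to 4, a narrow spread with overlapping groups. The listed start 277 kb inside, chr17:8800485-8804183, is the CG-rich one printed above and was covered by 3241 ± 261 and 3181 ± 180 bp (SD, n = 4 each). The centred differences were -0.05 ± 0.05 and -0.08 ± 0.06 (SE). A sparse region near chr17:8592843 was covered by 489 bp in transgenic replicate 2 alone among the transgenic libraries and by 222, 231, 392 and 220 bp in control replicates 1 to 4, at -1.31 ± 0.76 (SE), which did not pass. The last region, chr17:8988188-8989003, lies 1540 bp past the 3′ end of Pde10a, which is on the plus strand. It spans one end, at 8988320, of the protein-coding gene 1700010I14Rik and is counted for Pde10a only through the 2 kb rule. It was the region nearest the 2 kb limit on the inside. Just beyond the limit, regions of 1864 bp mean coverage lay 3039 bp from Pde4c and of 639 bp lay 3782 bp from Pde4a.

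**Figure D4:**
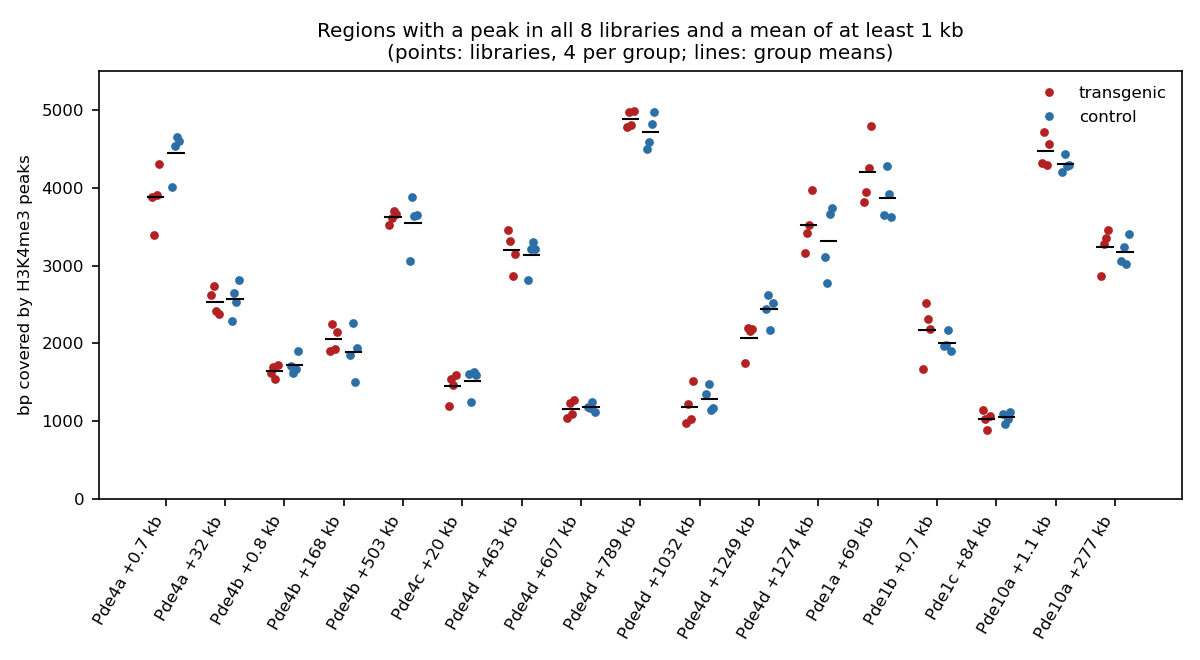
Covered bp (vertical axis) in each library at the 17 regions with a peak in all 8 libraries and a mean of at least 1 kb, named by distance from the outer gene start, with 1 point per library and a line at each group's mean. The groups overlap in all 17 regions. At the first Pde4a region 3 of the 4 transgenic libraries lie below every control library, while transgenic replicate 4 lies above control replicate 1. At the Pde4d region 1249 kb inside, control replicates 1, 2 and 4 lie above every transgenic library.

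Set beside the rest of the genome, the widest region of Pde4d, Pde10a, Pde4a, Pde1a and Pde4b lay above 98.1%, 97.4%, 96.9%, 96.5% and 95.0% of the 23300 regions with a peak in all 8 libraries, whose median width was 1268 bp. Those of Pde1b, Pde4c and Pde1c lay above 78.6%, 58.6% and 40.8%. Each gene's widest region was ranked against single regions, not against the widest region of other genes. A gene with several regions thus tends to rank higher. Summed over each gene, Pde4d averaged the largest coverage of the 8, above 99.8% of all genes and above 96.2% of the 78 genes within 1.5-fold of its length. Pde4a was above 97.6% of its 3691 like-length genes and Pde1c above 32.3% of its own. The points share libraries and gene length, and no test was made.

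Between groups, 46 of the 66 regions had a peak in at least 2 libraries and were tested among all 72683 such regions. In limma, 35 of them all passed the adjusted threshold of 0.05 (0.0482%), 33 higher in transgenic libraries (0.0454%) and 2 lower (0.00275%). The first Pde4a region was 1 of those 2, and that call is why these genes were chosen, so nothing is read from it. It was lost on leaving out any single library. None of the other 45 passed, and 1 of them, the Pde4d region that contains Mir1904, had an unadjusted p under 0.05, in the lower direction (all regions 1.81% lower and 4.5% higher). Of the 46, 14 lay above 0 and 32 under it, their median being -0.10 against 0.03 for all tested regions. The 72683 regions include the X and Y chromosomes, with 57553 on autosomes, whereas the members are all autosomal. Constant regions made up 23300 of them, against 26 of the 46 members. The shares and median of all tested regions are therefore not a like-for-like background. Of the 26 constant regions, 22 were below 0 (median -0.11) against 64.2% of all constant ones (median -0.06). These member counts and medians include the first Pde4a region, on which the set was chosen. In addition, 11 of the 26 lie in Pde4d and are not separate genes, so the counts are a description only. Leaving out the centring moves the median of all constant regions up by 0.105. The members then fell 13 above and 13 below 0 (median -0.01), against 33.5% of all constant regions below 0 (median 0.05).

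No constant member region had groups that did not overlap, against 5.41% of all constant regions in either direction. Precision was good for the wide regions under the trended and robust variance. All 17 constant regions of at least 1 kb had a 95% interval of the difference narrower than a 1.5-fold change on both sides. So had 20 of the 26 constant ones and 59.3% of all constant regions. With ordinary variance the SE at the first Pde4a region was 0.14 rather than 0.06. At the Pde1c region 84 kb inside it was 0.15 rather than 0.16. Summed per gene, coverage did not pass for any of the 8 genes (0 of 8, limma, with 0 at an unadjusted p under 0.05), as for all 16496 genes (0 called, 0.0%, with 3.41% higher and 1.58% lower at an unadjusted p under 0.05). Pde4a summed to 6705, 6132, 6777 and 7027 bp in transgenic and 6306, 7186, 7178 and 7963 bp in control replicates 1 to 4, -0.13 ± 0.06 (SE; adjusted p = 0.984). The other 7 lay between -0.11 for Pde1c and 0.06 for Pde1b.

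**Figure D5:**
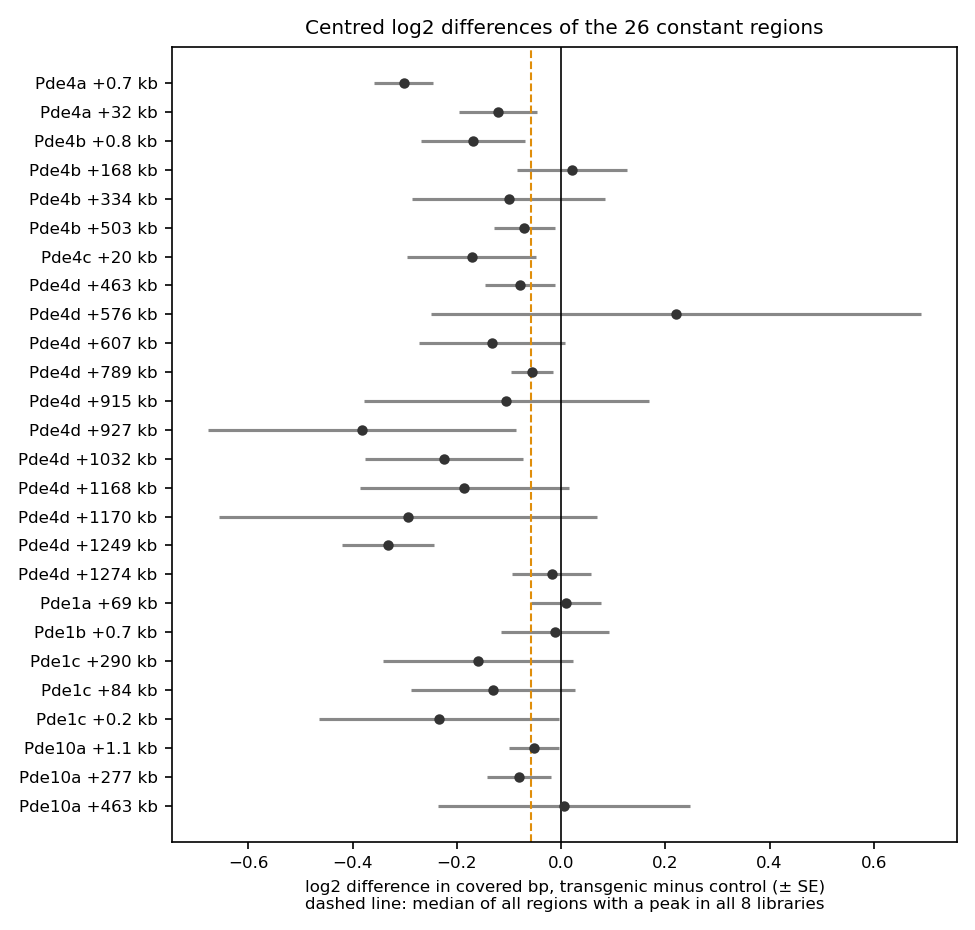
Centred log2 difference in covered length, transgenic minus control, with its SE (horizontal axis) for the 26 regions with a peak in all 8 libraries, and a dashed line at the median of all such regions. Of the 26, 22 lie below 0, and the first Pde4a region (-0.30) and the Pde4d region 1249 kb inside (-0.33) lie farthest from it for their error. The first Pde4a region is the one the set was chosen on.

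The 8-library pattern of the first Pde4a region was compared with the constant regions on other chromosomes, 22127 in all. Only those at a protein-coding gene are named. Among these named regions, the highest Pearson r of centred log2 breadth over the 8 libraries was with Neto1 (0.978), which encodes a kainate receptor auxiliary protein. Next came Rrp8 with Ilk (0.964), Tmx2 with Med19 (0.962), Kif5a with Dctn2 (0.958) and Rpl27 (0.952). In all, 54 regions reached 0.9. The other constant member regions had r from -0.23 to 0.65. The points share the same 8 libraries and group labels, and no p is given.

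Other genes of cyclic nucleotide signalling gave 82 genes, the remaining phosphodiesterases, cyclases, PKA and PKG subunits, anchoring proteins, effectors, cAMP-responsive factors and calmodulin genes. All but 5 had a peak in some library, 70 had one in all 8, and the 5 without were Pde6c, Pde6g, Pde6h, Adcy10 and Cnga1, most of them known from photoreceptors. Of the 75 tested, 0 passed in either direction (limma), 0 had an unadjusted p under 0.05, and 30 lay above 0 and 45 below, with a median of -0.02 against -0.01 for all genes. The adenylyl cyclase Adcy3 summed to 2934 ± 269 bp in the transgenic and 3255 ± 521 bp in the control group, and the PKA regulatory subunit Prkar1a to 4653 ± 274 and 4841 ± 143 bp. The cGMP phosphodiesterase Pde9a summed to 3085 ± 181 and 2691 ± 456 bp, and the cAMP-binding Bves to 1522 ± 246 and 1297 ± 189 bp (SD, n = 4 each). None of these differences passed. Coverage at genes of other cell types, summed over lists, ran from 3286 to 4464 bp in the transgenic and 2888 to 3817 bp in the control group for astrocytes (Aldh1l1 at 0). It ran from 4163 to 6042 and 4090 to 5722 bp for oligodendrocytes (Mog and Mobp at 0) and from 0 to 200 bp for microglia. For endothelium it ran from 2211 to 4055 and from 2979 to 4211 bp (no gene at 0), and for CA3 from 6483 to 8340 and from 4166 to 7127 bp, with both CA3 genes above 0 (median 0.65). Of these, Grik4 had 6870 ± 506 and 5080 ± 1093 bp (SD, n = 4 each), a difference of 0.41 ± 0.15 (SE; limma, adjusted p = 0.895). Iyd, covered by 0 to 863 bp per library, had 0.88 ± 0.61 (SE). In the other direction, the oligodendrocyte gene Cnp had 917 ± 90.5 bp in the transgenic and 1159 ± 223 bp in the control group (SD, n = 4 each). Its difference was -0.33 ± 0.12 (SE; limma, adjusted p = 0.902). The part of these genes' cell types in the member differences was not tested. None of the 31 marker genes tested passed the test.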

How the data were processed

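H3K4me3 ChIP-seq was analysed from 1 peak list per library, for 4 transgenic and 4 littermate control libraries grouped by title. Each list was taken as the file recorded for that sample. In the sample descriptions the letter A goes with transgenic and C with control, whereas the list names carry C beside TG and A beside WT. The group names TG and WT match the titles while the letters do not, so the direction of each transgenic-minus-control value rests on the group names. The input samples were not analysed here. The submitters' processing notes name MACS2, limma, DiffBind, Bowtie2 2.0.2, FastQC 0.11.5, deepTools 3.0.1 and SAMtools 1.3.1, with the build mm10, and their roles are not stated there. In the deposited lists each peak has a position, a score, a fold enrichment (a ratio) and −log10 values of p and q. The deposited −log10 p-value was used only to rank peaks, and the authors' fold enrichment and −log10 q-value only to describe or filter peaks within a list. Depth is unknown, as no reads were counted.

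Overlapping peaks within a library were merged, and regions were the union of the 8 lists (overlap of 1 bp). Regions in at least 2 libraries were tested with limma 3.58.1 in R 4.3.3 on log2(bp + 100) minus the library's median over constant regions (seen in all 8), with trended and robust variance and Benjamini-Hochberg adjustment at 0.05. This scale understates changes of narrow regions. The fit was checked on simulated data. Genes were tested likewise on bp summed over regions within 2 kb. Members, gene lists and settings were chosen with earlier results of these data known. The named regions were each gene's widest, other constant ones of at least 1 kb, and up to 3 with the smallest p. The Pde4b start 334 kb inside and the Pde10a region past the gene end were added after their values were seen. For the pathway, the 2 genes with the smallest p in each direction were named, and for likeness the 5 regions at protein-coding genes with the highest r. The titles do not say whether libraries with the same replicate number are pairs. The main fit did not treat them as pairs, and a fit with the replicate number as a block is given below. Fits by X-peak class were added after seeing the data.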

Additional observations from a re-analysis of the deposited data

Results flagged for a closer look

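A library was looked for that stood apart from the others of its group, in 56 groups of 4 values over the regions and summed genes described, and 6 such values were found. Chance gives about 1 in 20 groups. The Pde4c region 20 kb inside was low in control replicate 2, at 1246 bp, and the summed Pde4c value of 1246 bp in that library is the same reading. The Pde4d region 1249 kb inside was low in transgenic replicate 1, at 1743 bp. The sparse Pde10a region was high in control replicate 3, at 392 bp. Summed Pde4b coverage was low in control replicate 1, at 8201 bp, and summed Pde1b coverage was low in transgenic replicate 1, at 1869 bp.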

How the results depend on the processing

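The count of 35 called regions was 118 without centring, 15 with a pseudocount of 10 bp, 0 with equal numbers of top-ranked peaks, 296 with ordinary variance, 57 with library weights, 871 with no filter, 0 for regions in at least 4 libraries, 10 on autosomes, 16 with nearby peaks joined, 21 with the X-peak class as a term, and 0 in either X-peak class alone. Leaving out 1 library gave 15 (without transgenic replicate 1) to 54 (without control replicate 3). With the replicate block it was 0, and the first Pde4a region had an adjusted p of 0.264, while same-numbered libraries correlated at only -0.039 to 0.135. The count of 1 called member region was 0 in all of these except with no filter and with library weights (1 each), and 0 to 0 on leaving out 1 library. That region's difference ran from -0.35 to -0.20 over 24 alternatives, with an adjusted p of 8.45e-06 to 0.657, and was called in 2. The direction of this 1 called region did not turn. Regions that were not called could change sign, as the widest Pde4b region did, from -0.07 to 0.03 without centring. Over the 29 regions described in full, 30 of 666 alternative values moved by at least the region's residual SD. The count of 0 called genes was 2 without centring and 5 with ordinary variance, and 0 to 13 on leaving out 1 library, with 13 without transgenic replicate 1. No member gene was called in any of them, and the block changed no other member call. Unknown depth limits what a missing peak can show.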
